A study of Drosophila melanogaster with 9 samples.

Results

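The transcripts described here encode vesicle traffic proteins: the Rab, Vps, Sec, Exo and Snx genes and those subunits of the COP coat that the symbol rule found. They were taken by gene symbol alone, as every row whose name begins with Rab, Vps, Sec or Exo and a number (or with RabX or Snx), or consists of lower-case letters and COP. The rule found 78 of the 6440 listed genes, and it used no measured value. All 78 were tested in every comparison.

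RNA was sequenced from embryos of wild-type Drosophila melanogaster, laid within a window of 0 to 3 h, in 3 groups of 3 libraries. For the ORB2 immunoprecipitate (ORB2 IP), RNA was pulled from the lysate with the E8 Fab, a synthetic antibody fragment. In the control immunoprecipitate (control IP) the C1 Fab, directed at EGFR, took its place, while input RNA was not immunoprecipitated. All groups came from cleared whole-embryo lysate with no transgene or mutation named in the labels, so every library mixes embryos and cell types, and fewer cells of a type cannot be told apart from less RNA per cell. The labels do not say whether replicates came from separate embryo collections. The p-values therefore measure the spread between these libraries, which may be technical.

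Membrane cargo moves between compartments in coated vesicles. COPII coats carry cargo out of the endoplasmic reticulum (ER), COPI coats return it from the Golgi, Rab GTPases mark each compartment, and tethers such as the exocyst and HOPS bring vesicles to their target. ESCRT proteins bud vesicles into endosomes, and retromer with sorting nexins recycles receptors. In the early fly embryo this machinery supplies the membrane from which the syncytium is divided into cells, largely from maternally loaded mRNA, and ORB2 is a CPEB-family protein that binds mRNA and regulates its translation and stability.

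Abundance is given as the authors' normalized count per library, and levels are compared between genes only as TPM (a share of all transcripts), which scales for transcript length. Normalized-count totals ran from 3952548 to 5368634 in ORB2 IP, from 3504705 to 3747319 in control IP and from 2625388 to 2856867 in input. The 78 transcripts together took 0.374% to 0.523% of the total in ORB2 IP, 0.638% to 0.66% in control IP and 0.813% to 0.898% in input. These shares follow the totals, which were lowest in input, and do not show a loss of vesicle values. The median log2 fold change of the 78 over input was 0.07 in ORB2 IP and 0.03 in control IP. ORB2 IP replicate 2 was the coarsest library: 108 listed genes were at 0, its lowest positive value was 5.7, and its lowest value among the vesicle genes was 33.6, for Rab27. ORB2 IP replicate 3 stood nearer to the control IP libraries than the other ORB2 IP libraries did, with Spearman correlations across the 78 genes of 0.910 to 0.946, against 0.804 to 0.872 for replicates 1 and 2. Input replicate 1 likewise correlated with the 6 immunoprecipitates at 0.691 to 0.779, against 0.304 to 0.509 for input replicates 2 and 3. Genes share libraries and are not replicates, so these correlations only describe the libraries.

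The mRNA of orb2 itself had 6661, 9610 and 8127 normalized counts in ORB2 IP, against 49.7, 62.8 and 24.2 in control IP. The 3 ORB2 IP libraries lay far above all control IP libraries, by 7.54 on the log2 scale (SE 0.29, adjusted p = 6.46e-09 in limma's moderated test with Benjamini-Hochberg adjustment). All 7 maternal markers and all 7 early zygotic markers were in the tables, and none of the 7 markers of later muscle and nerve, 3 of haemocytes and 7 of follicle cells was listed. Summed TPM of the maternal markers was 1410 to 2160 in ORB2 IP, 1170 to 1340 in control IP and 2970 to 3810 in input. For the early zygotic markers it was 267 to 421 in ORB2 IP, 467 to 780 in control IP and 278 to 376 in input. The sums hide members that differed in direction. In control IP halo had 375 to 570 TPM against 28.3 to 119 in input, and Sry-alpha 25.7 to 30.3 against 150 to 213. In ORB2 IP osk had 81.1 to 243 TPM against 31.3 to 91.8 in input, and nos 120 to 361 against 658 to 1020. The part of these differences in the results below was not tested.

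In input, the vesicle genes had a median of 43.9 TPM, beside 37.2 TPM for all listed genes, and ran from 5.19 to 479 TPM. Sec61gamma, a small subunit of the channel through which new proteins enter the ER, was the most abundant at 479 ± 73.1 TPM (SD, n = 3). Next came zetaCOP at 256 TPM, the COPII subunit Sec13 at 247 TPM, Rab11 at 233 TPM and epsilonCOP at 215 TPM. The exocyst mRNAs were scarcer, with a median of 15.0 TPM for the 8 subunits, and Sec24AB, Sec71, Sec10 and Vps45 were the 4 lowest at 5.19 to 5.96 TPM.

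ORB2 IP was set against control IP to ask which mRNAs came down with ORB2 beyond what an unrelated Fab retained. A transcript was called at a Benjamini-Hochberg adjusted p below 0.05 from limma, fitted on log2(normalized count + 1) over all genes. Of the 78 vesicle transcripts, 16 were higher in ORB2 IP (20.5%), beside 20.8% of all tested genes, and 16 were lower (20.5%), beside 21.6% of all. The shares were thus close to those of the whole table. The median log2 fold change was 0.08 for the vesicle genes and 0.00 for all genes. Changes were modest, from -1.12 for zetaCOP to 1.28 for Sec5, and 5 increases and 4 decreases reached 2-fold, beside 7.93% and 6.84% of all genes. All 3 ORB2 IP libraries lay above all control IP libraries for 26 vesicle transcripts, beside 27.6% of all genes, and below them for 18, beside 28.3%.

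By complex, of the 16 increases, 5 were exocyst subunits, 3 belonged to the COPII coat and ER exit sites, 2 were COPI subunits, 2 were sorting nexins and 2 were tethering subunits of HOPS or CORVET. Rab9 and the Arf activator Sec71 completed the list. Of the 16 decreases, 6 were Rab GTPases and 5 were ESCRT proteins. Leaving out control IP replicate 3 cut the calls to 5 higher and 10 lower. Without ORB2 IP replicate 2 there were 6 higher and 12 lower calls, and without ORB2 IP replicate 1 there were 8 and 15. Without ORB2 IP replicate 3, the library nearest to the controls, there were 19 and 15. Over all genes the calls went from 1316 higher and 1366 lower to 717 and 974 without control IP replicate 3. They were 864 and 1041 without ORB2 IP replicate 2, 972 and 1193 without ORB2 IP replicate 1, and 1493 and 1573 without ORB2 IP replicate 3.

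**Figure D1:**
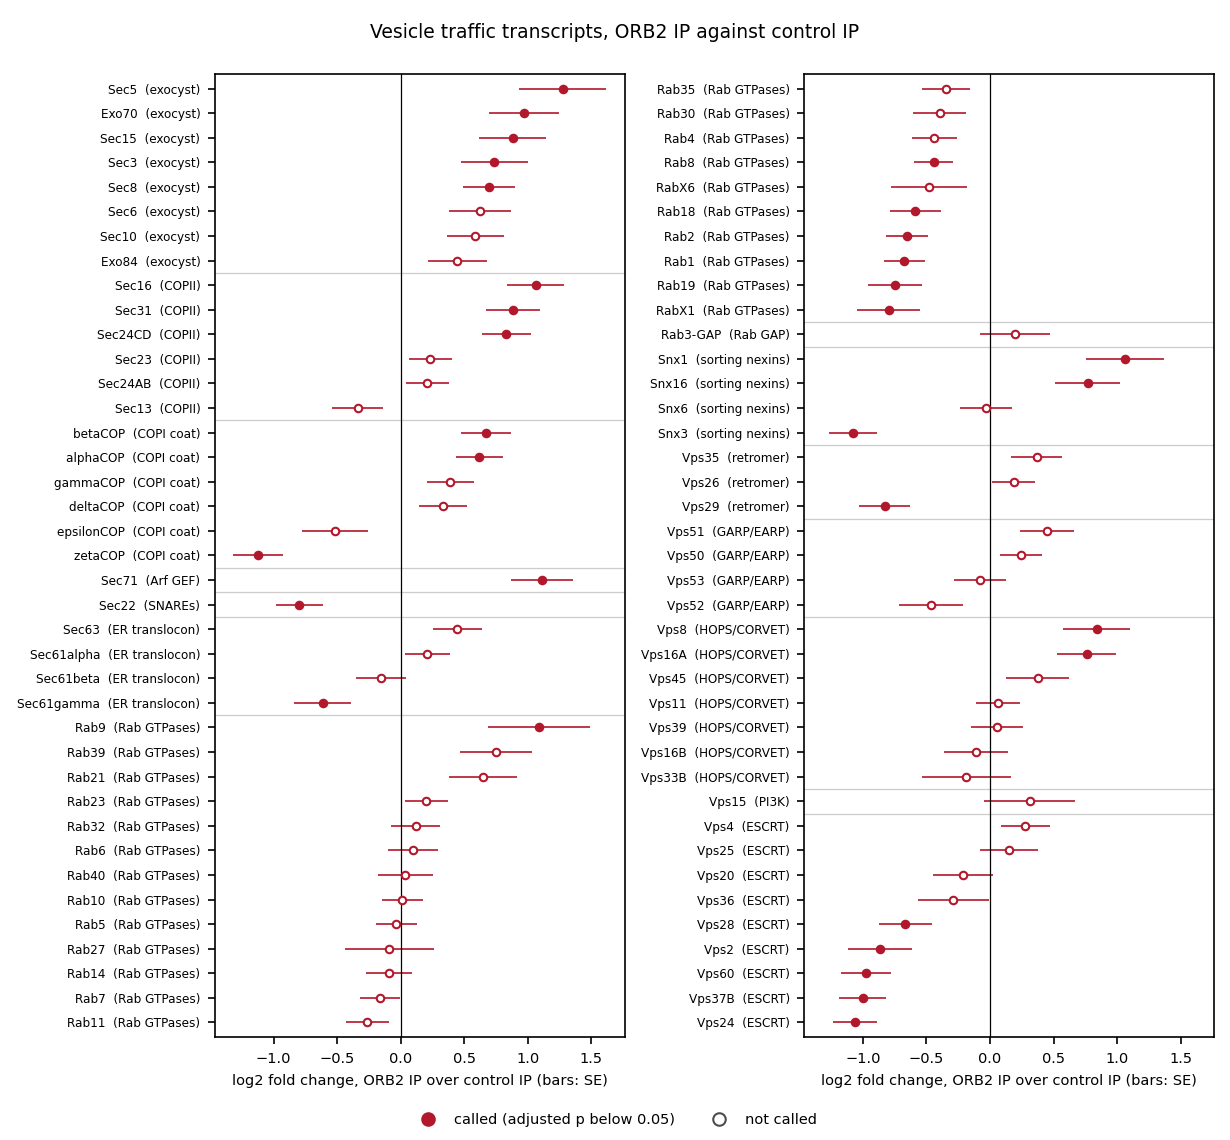
Log2 fold change of ORB2 IP over control IP (horizontal axis) for each vesicle transcript, arranged by complex, with bars of 1 SE and filled points for transcripts called by limma. All 8 exocyst points lie right of 0, whereas 7 of 9 ESCRT points and 15 of 23 Rab points lie left of it.

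The scaling of the libraries sets where 0 lies. Equal library totals moved the median of all genes to -0.35, equal upper quartiles moved it to 0.15, and the TPM table moved it to 0.24. The vesicle calls then numbered 3 higher and 24 lower with equal totals, 23 and 12 with equal upper quartiles, and 16 and 6 with the TPM table. The calls over all genes moved the same way. They numbered 383 and 2178 of 6318 with equal totals, 1736 and 999 of 6318 with equal upper quartiles, and 1356 and 712 of 6365 with the TPM table. No called member changed sign in any of these fits, although uncalled members near 0 did.

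The exocyst tethers secretory vesicles to the plasma membrane and has 8 subunits, all of them present in the tables. All 8 had positive log2 fold changes over control IP, 5 were called higher and none lower by limma, and the median was 0.72. At an unadjusted p below 0.05, 7 were higher and 0 lower. The called higher share, 62.5%, stood beside 20.8% of all genes. It stood beside 16.6% of all genes of 1500 to 2500 nt and 38.6% of those of 2500 nt or more. The median length of the 8 subunits was 2602 nt. Sec5, a subunit that binds the GTPase Ral, showed the largest change, with 79.3, 122 and 53.3 normalized counts in ORB2 IP, against 26.8, 43.8 and 29.5 in control IP. Each ORB2 IP library lay above all 3 control libraries, at 1.28 on the log2 scale (SE 0.34, adjusted p = 0.012 in limma with Benjamini-Hochberg adjustment).

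Exo70, a subunit that contacts membrane lipids, had 106, 104 and 62.7 normalized counts in ORB2 IP, against 42.1, 51.5 and 41.1 in control IP. The groups did not overlap, and the log2 fold change of ORB2 IP over control IP was 0.97 (adjusted p = 0.016, limma with Benjamini-Hochberg adjustment). Sec15, the subunit through which Rab11 engages the complex, had 187, 297 and 137 normalized counts in ORB2 IP, against 118, 113 and 90.3 in control IP. Its log2 fold change was 0.88, with replicate 2 the highest ORB2 IP library.

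Sec8 was higher by 0.70 and Sec3 by 0.74 on the log2 scale, but 1 control library of Sec3, at 103, lay above the lowest ORB2 IP library, at 98.6. Sec6 and Sec10 had log2 fold changes of 0.63 and 0.59 and missed the threshold (adjusted p = 0.054 and 0.051 in limma with Benjamini-Hochberg adjustment). Both passed once the replicate number was a block in the same fit, at adjusted p = 0.045 for Sec6 and 0.039 for Sec10. Exo84, at 0.45, was not called in either fit. The exocyst calls depended on single libraries: 1 remained without control IP replicate 3, 2 without ORB2 IP replicate 1 or without ORB2 IP replicate 2, and 7 were made without ORB2 IP replicate 3. Calls over all genes moved the same way, from 2682 to 1691 without control IP replicate 3. They numbered 2165, 1905 and 3066 without ORB2 IP replicates 1, 2 and 3 in turn. With equal library totals 1 subunit was called. All 8 log2 fold changes stayed positive in each of these fits.

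**Figure D2:**
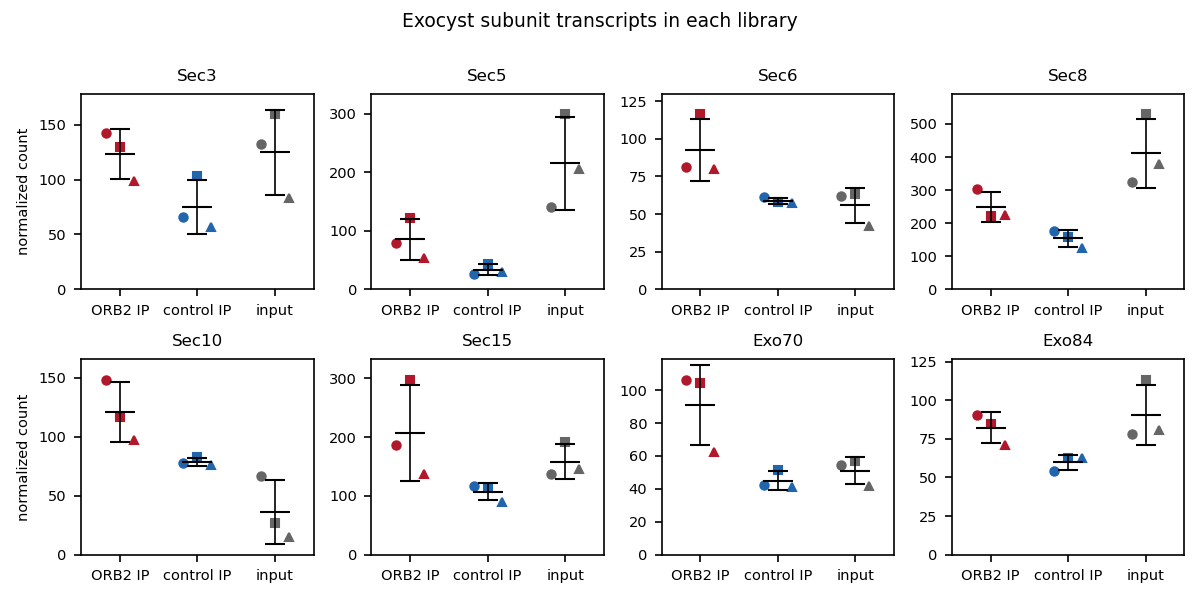
Normalized counts (vertical axes, from 0) of the 8 exocyst mRNAs in each library of ORB2 IP, control IP and input, with circles, squares and triangles for replicates 1, 2 and 3 and dashes and bars for mean ± SD. ORB2 IP lies above control IP in all 8 panels by its mean, and for Sec5 and Sec8 input lies above both.

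Input placed the exocyst mRNAs differently. Sec5 had 140.4, 299 and 206 normalized counts in input, above every ORB2 IP and control IP library. It was called lower in ORB2 IP than in input by limma, at a log2 fold change of -1.34, and lower in control IP, at -2.62. Sec8 showed the same order, at -0.70 in ORB2 IP and -1.40 in control IP. Sec10 was instead called higher in both immunoprecipitates, at 1.94 in ORB2 IP and 1.35 in control IP, and its input libraries spread widely, at 66.9, 26.9 and 15.2. Exo70, Sec6, Sec15, Sec3 and Exo84 were called in neither comparison with input.

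At ER exit sites, 3 of 6 COPII-related mRNAs were higher in ORB2 IP than with the control Fab and none was lower by limma, also at an unadjusted p below 0.05 (3 higher, 0 lower). The median was 0.53. The higher share, 50%, stood beside 20.8% of all genes and 38.6% of all genes of 2500 nt or more. The median length of these 6 was 4488 nt. Sec16, the scaffold that organises exit sites, had 538, 624 and 409 normalized counts in ORB2 IP, against 265, 304 and 186 in control IP. The groups were fully apart, and the difference was 1.06 on the log2 scale (SE 0.22, adjusted p = 0.005, limma with Benjamini-Hochberg adjustment). Sec31, of the outer coat, was higher by 0.88. Sec24CD, a cargo-binding subunit of the inner coat, was higher by 0.83. Sec23, the other inner-coat subunit, and Sec13, the partner of Sec31, gave 0.23 and -0.34 and were not called, nor was the second Sec24 isotype, Sec24AB, at 0.21.

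Sec24CD was the 1 vesicle transcript called higher by limma in ORB2 IP against control IP and also against input. All ORB2 IP libraries lay above all other libraries for 8 vesicle transcripts: Exo70, Rab23, Rab39, Sec10, Sec24CD, Sec6, Vps16A and Vps50. The shares of all genes with this order, or with both calls, were not counted. Of all genes, 27.6% lay fully above control IP and 30.0% fully above input. Normalized counts of Sec24CD were 298, 237 and 257 in ORB2 IP, 155, 169 and 122 in control IP, against 139.7, 126 and 69.4 in input. The log2 fold change over input was 1.29 (SE 0.30, adjusted p = 0.007, limma with Benjamini-Hochberg adjustment). Its call over control IP was lost with equal library totals (0.47) and after a correction for transcript length (0.38), and its call over input with equal library totals (0.51) and with the TPM table (0.82). By limma, 0 vesicle transcripts were called at 2-fold or more over both, and the share of all genes was not counted for this either. Sec24AB, by contrast, overlapped between the immunoprecipitates, with 261, 243 and 266 normalized counts in ORB2 IP, 204, 249 and 214 in control IP, against 97.4, 70.3 and 30.5 in input. It was called higher than input in both immunoprecipitates, at 2.09 in ORB2 IP and 1.88 in control IP. Sec23 was called lower than input in both, at -1.75 in ORB2 IP and -1.98 in control IP.

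Sec71 encodes a guanine nucleotide exchange factor that activates Arf GTPases at the Golgi. It had 131, 169 and 113 normalized counts in ORB2 IP, against 72.1, 68.2 and 48.9 in control IP. All ORB2 IP libraries were above the control libraries, at 1.11 on the log2 scale (SE 0.25, adjusted p = 0.006, limma with Benjamini-Hochberg adjustment). It was called in neither comparison with input.

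Most COPI mRNAs were lower in both immunoprecipitates than in the extract. Of the 6 within the symbol rule, 5 were lower than input in ORB2 IP (83.3%, beside 25.1% of all genes) and 5 in control IP (83.3%, beside 32.3%). The medians were -1.66 and -2.02. Each alternative fit gave 5 or 6 such calls in ORB2 IP and 5 in control IP. For betaCOP, a subunit of the coat's core, normalized counts were 188, 214 and 162 in ORB2 IP, 128, 119 and 105 in control IP, against 462, 902 and 816 in input. Input exceeded both immunoprecipitates without overlap, and the log2 fold change was -1.90 for ORB2 IP over input and -2.57 for control IP over input. Between the immunoprecipitates, betaCOP was higher in ORB2 IP by 0.67 and alphaCOP, of the coat's outer layer, by 0.62. The log2 fold changes of gammaCOP (0.39), deltaCOP (0.33) and epsilonCOP (-0.52) were not called. A further coat subunit, beta'COP, falls outside the symbol rule. It was called lower in ORB2 IP than in input, at -1.77, and was not called between the immunoprecipitates, at 0.03.

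zetaCOP was the exception. This small subunit of the core had 288, 353 and 475 normalized counts in ORB2 IP, 787, 738 and 855 in control IP, against 444, 335 and 447 in input. Control IP stood above the other groups, which overlapped each other. The difference of ORB2 IP from control IP was -1.12 (SE 0.20, adjusted p = 0.002, limma with Benjamini-Hochberg adjustment), the largest decrease among the 78 and the only COPI decrease. The decrease of zetaCOP held in all 17 alternatives, while the increases of alphaCOP and betaCOP were each lost with equal library totals, in 1 fit of all 9 libraries, after a correction for length, and without control IP replicate 3, control IP replicate 2 or ORB2 IP replicate 2.

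**Figure D3:**
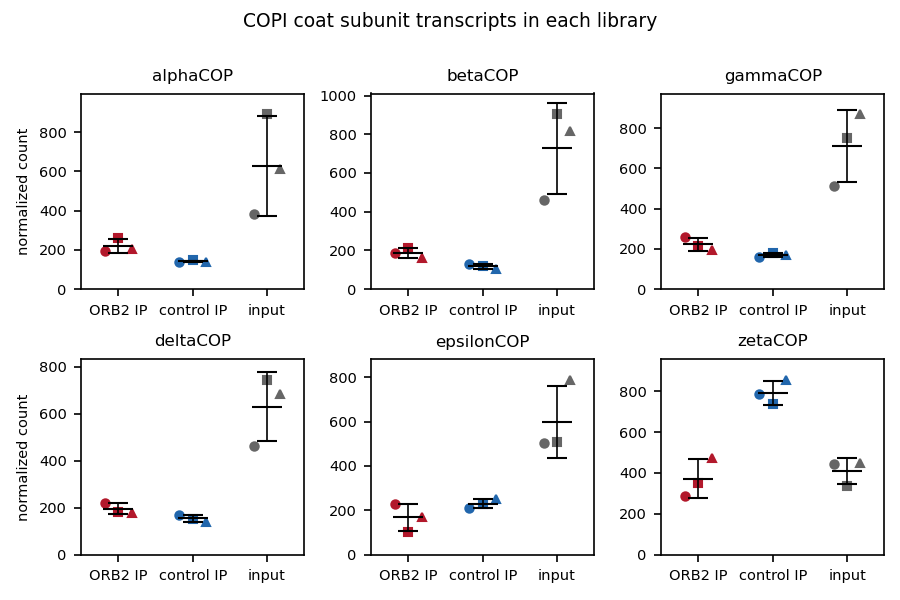
Normalized counts (vertical axes, from 0) of the 6 COPI coat mRNAs within the symbol rule (without beta'COP) in each library of ORB2 IP, control IP and input, with symbols for replicates and dashes and bars for mean ± SD. For 5 subunits the input libraries lie above both immunoprecipitates, and for zetaCOP control IP is highest.

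Genes of the ER translocon were also mixed. Sec61alpha, the channel's pore-forming subunit, and Sec63, its partner for post-translational import, were called lower than input in both immunoprecipitates. For Sec63 the normalized counts were 221, 187 and 177 in ORB2 IP, 136, 167 and 127 in control IP, against 552, 1047 and 935 in input. These groups did not overlap input, at -2.06 for ORB2 IP and -2.51 for control IP, and -2.06 was the lowest value of any vesicle gene in ORB2 IP against input. Sec61gamma had 688, 934 and 1322 normalized counts in ORB2 IP, 1500, 1299 and 1564 in control IP, against 711, 442 and 703 in input. It was called lower in ORB2 IP than in control IP at -0.61 (adjusted p = 0.045, limma with Benjamini-Hochberg adjustment), although ORB2 IP replicate 3 lay within the control IP range. That call was made without ORB2 IP replicate 3 but lost without any 1 of the other libraries. Sec61beta was called in neither comparison with input, at 0.08 in ORB2 IP and 0.24 in control IP.

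Among the 23 Rab GTPases, 1 was higher in ORB2 IP than with the control Fab (4.35%, beside 20.8% of all genes). A further 6 were lower (26.1%, beside 21.6%), and the median was -0.16. Rab9, which acts in transport from late endosomes to the Golgi, was the one increase. It had 49.9, 53.9 and 28.0 normalized counts in ORB2 IP, 20.9, 26.5 and 13.0 in control IP, against 88.3, 152 and 150.4 in input. ORB2 IP lay above control IP and below input without overlap, at 1.09 over control IP (SE 0.40, adjusted p = 0.045, limma with Benjamini-Hochberg adjustment). The call was lost with equal library totals and without any 1 library other than ORB2 IP replicate 3.

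The 6 decreases were RabX1 (-0.80), Rab19 (-0.75), Rab1 (-0.67), Rab2 (-0.65), Rab18 (-0.59) and Rab8 (-0.44). Rab1 and Rab2 act between the ER and the Golgi, and Rab8 in transport to the plasma membrane. RabX1 had 198, 313 and 386 normalized counts in ORB2 IP, against 424, 465 and 638 in control IP. Every control library was above every ORB2 IP library for RabX1, and likewise for Rab19, with 97.8, 73.0 and 80.7 in ORB2 IP, against 127, 137 and 159.6 in control IP. Both calls were lost with the TPM table, without control IP replicate 3, and once the length trend was removed, which left -0.64 for RabX1 and -0.31 for Rab19. For Rab1 the normalized counts were 903, 845 and 914 in ORB2 IP, 1322, 1388 and 1546 in control IP, against 929.7, 713 and 768 in input. Control IP was the highest group, and ORB2 IP overlapped input. Rab4, of early endosomes, missed the threshold at -0.44 (adjusted p = 0.066, limma with Benjamini-Hochberg adjustment) and passed with the replicate block (adjusted p = 0.032).

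The direction of the Rab group depended on the scaling: 15 of 23 log2 fold changes were negative in the main fit, 20 with equal library totals, 12 with equal upper quartiles and 11 with the TPM table. Without control IP replicate 3 the only calls by limma were 2 decreases, and with the TPM table the only ones were 3 increases. Rab11, the recycling-endosome GTPase and the most abundant Rab in input at 233 TPM, was called in no comparison, with 1024, 929 and 1192 normalized counts in ORB2 IP, 1260, 1140 and 1359 in control IP, against 946, 973 and 898 in input.

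Against input, 8 of 23 Rabs were higher in ORB2 IP (34.8%, beside 26.0% of all genes) and 5 lower (21.7%, beside 25.1%). In control IP 13 were higher (56.5%, beside 33.5%) and 4 lower (17.4%, beside 32.3%). Without control IP replicate 1 the 13 became 8, and the 5 became 2 without ORB2 IP replicate 2, ORB2 IP replicate 3, input replicate 2 or input replicate 3. The 8 increases in ORB2 IP became 5 without input replicate 3. Rab23, known in mice as a regulator of Hedgehog signalling and in flies of hair polarity, had 531, 424 and 405 normalized counts in ORB2 IP, 402, 368 and 404 in control IP, against 216, 55.5 and 52.0 in input. Both immunoprecipitates exceeded input, by 2.38 for ORB2 IP and 2.18 for control IP on the log2 scale, and 2.38 was the highest value of any vesicle gene in ORB2 IP against input. Input replicate 1, at 216, stood apart from the other inputs. Rab7, the late-endosome GTPase, was called higher at 1.899 in ORB2 IP and 2.06 in control IP. At the low end, Rab27, a secretory Rab, was called lower at -1.60 in ORB2 IP and -1.51 in control IP, and Rab9 at -1.56 and -2.65 in the same order. Rab3-GAP, a regulator rather than a GTPase, was called lower at -1.65 in ORB2 IP and -1.84 in control IP.

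On the endosomal side, the 4 sorting nexins split. Snx1, a membrane-bending partner of retromer, had 186, 152 and 91.2 normalized counts in ORB2 IP, 81.6, 76 and 44.7 in control IP, against 255, 491 and 456 in input. ORB2 IP lay between control IP and input without overlap, 1.06 above control IP on the log2 scale (SE 0.31, adjusted p = 0.017, limma with Benjamini-Hochberg adjustment). Snx16 was higher than in control IP by 0.77. Neither increase was called without control IP replicate 3, ORB2 IP replicate 1 or ORB2 IP replicate 2, nor with equal library totals. Snx3, which in flies carries the Wnt carrier Wntless back from endosomes, went the other way, with 666, 571 and 875 normalized counts in ORB2 IP, 1592, 1393 and 1413 in control IP, against 530, 458 and 553 in input. Control IP exceeded both other groups, and the difference of ORB2 IP from control IP was -1.08 (SE 0.19, adjusted p = 0.002, limma with Benjamini-Hochberg adjustment). Snx6 was not called between the immunoprecipitates, at -0.03.

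Of the retromer core, Vps29 was lower in ORB2 IP than in control IP and its partners Vps26 (0.18) and Vps35 (0.37) were not called. Vps29 had 289.5, 450.4 and 479 normalized counts in ORB2 IP, 721, 677 and 719 in control IP, against 241, 128 and 146 in input. The 3 groups did not overlap, with -0.83 for ORB2 IP over control IP, 1.26 for ORB2 IP over input and 2.09 for control IP over input. The decrease against control IP was not called once the trend with transcript length was removed (-0.36, for a transcript of 999 nt). None of the 4 GARP and EARP tether subunits was called between the immunoprecipitates by limma, nor at an unadjusted p below 0.05 (0 of 4). Against input Vps50, which is particular to EARP, was called higher in both (1.50 in ORB2 IP, 1.26 in control IP) and Vps51 lower in both (-1.41 in ORB2 IP, -1.86 in control IP).

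In the HOPS and CORVET tethers, related Vps proteins and fusion factors, 2 of 7 mRNAs were higher in ORB2 IP than with the control Fab. None was lower by limma, also at an unadjusted p below 0.05 (2 higher, 0 lower). The higher share, 28.6%, stood beside 20.8% of all genes and 38.6% of all genes of 2500 nt or more, where the median length of these 7 was 2741 nt. Vps8, a subunit of CORVET, had 146, 149 and 106 normalized counts in ORB2 IP, against 93.6, 81.2 and 51.7 in control IP. The groups did not overlap, at 0.84 on the log2 scale. Vps16A, shared by both tethers, was higher by 0.76. Both calls were lost with equal library totals, after removal of the length trend, and without control IP replicate 3, ORB2 IP replicate 1 or ORB2 IP replicate 2. The HOPS subunit Vps11, in contrast, had 454, 404 and 369.8 normalized counts in ORB2 IP, 334, 416 and 429 in control IP, against 188, 34.3 and 142 in input. The immunoprecipitates overlapped each other and both exceeded input, at 2.05 for ORB2 IP and 1.99 for control IP. Vps45, a fusion factor that binds syntaxins, was called higher than input as well, at 1.77 in ORB2 IP and 1.40 in control IP, and Vps16B and Vps39 were called lower in both. Vps15, the regulatory subunit of the class III PI 3-kinase, was called lower than input at -1.26 in ORB2 IP and -1.57 in control IP. In ORB2 IP its replicate 1, at 85.7, overlapped the lowest input library, at 79.3.

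ESCRT mRNAs within the symbol rule were lower in ORB2 IP than in control IP for 5 of 9 and higher for none by limma. The median was -0.67, with the same counts, 5 and 0, at an unadjusted p below 0.05. The lower share, 55.6%, stood beside 21.6% of all genes and 42.4% of all genes under 1500 nt. All genes of that length had a median of -0.52, and the median length of these 9 was 1173 nt. Vps24, of the ESCRT-III filament, had 367, 483 and 505 normalized counts in ORB2 IP, 929, 990.2 and 886 in control IP, against 286, 144 and 231 in input. The 3 groups were apart, with ORB2 IP at -1.06 against control IP (SE 0.17, adjusted p = 0.002, limma with Benjamini-Hochberg adjustment) and at 1.07 against input. Vps37B, of ESCRT-I, had 181, 202 and 244 normalized counts in ORB2 IP, 469, 425 and 362 in control IP, against 304, 281 and 374 in input. ORB2 IP was the lowest group, at -1.001 against control IP (SE 0.18, adjusted p = 0.003, limma with Benjamini-Hochberg adjustment).

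Vps60 (-0.98) and Vps2 (-0.87), both of the ESCRT-III family, and Vps28 (-0.67), of ESCRT-I, were the other decreases. Vps2 and Vps37B were the ESCRT transcripts called lower in ORB2 IP than in input as well, at -0.80 and -0.61. The call for Vps37B was lost in 9 of 17 alternatives, among them each fit without 1 library other than input replicate 1, and that for Vps2 in 6 of 17, including those without ORB2 IP replicate 2, ORB2 IP replicate 3, input replicate 2 or input replicate 3. Within the symbol rule, the ESCRT-II mRNAs Vps25 and Vps36 were called in no comparison. Vps4, the ATPase that disassembles the filament, was called only in control IP against input, at -0.78. ESCRT genes outside the rule are given with the other pathway genes below, and did not lean to decreases. The number of ESCRT decreases was between 3 and 5 in the fits that left out 1 library and 3 with the TPM table.

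Sec22, a SNARE of transport between the ER and the Golgi, repeated the order of Vps24 and Vps29, with 179.6, 196 and 249 normalized counts in ORB2 IP, 381, 318 and 381 in control IP, against 109, 68.7 and 74.9 in input. The groups were apart, at -0.80 against control IP (adjusted p = 0.007, limma with Benjamini-Hochberg adjustment), and at 1.31 for ORB2 IP and 2.11 for control IP against input. Rab2 and Rab8 completed the 5 transcripts called lower than control IP and higher than input in ORB2 IP.

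Transcript length moved with the difference between the immunoprecipitates. Over the 78 genes, Spearman's rho between the longest annotated transcript and the log2 fold change of ORB2 IP over control IP was 0.586, and over 6272 genes it was 0.528. The points share the same 6 libraries, so these are descriptions. Of 19 vesicle genes under 1500 nt, limma called 0 higher and 9 lower, beside 3.44% and 42.4% of all genes of that length. At an unadjusted p below 0.05, 2 were higher and 10 lower. Of 27 vesicle genes of 2500 nt or more, 12 were higher and 1 was lower, beside 38.6% and 6.15% of all such genes. The medians of the vesicle genes were -0.52 and 0.39 in these classes, and those of all genes were -0.52 and 0.39 too.

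The complexes differ in length: the exocyst mRNAs had a median of 2602 nt, the COPII group 4488 nt, the Rabs 1648 nt and the ESCRT mRNAs 1173 nt. After the trend on length was taken out of each library, 13 of 78 vesicle genes were higher and 10 lower, beside 1085 and 1150 of 6272 genes. Of the exocyst, 3 of 8 were then called (median 0.47, all 8 positive), and of ESCRT 1 was called higher and 3 lower. Sec5 (1.05), Exo70 (0.84), Sec16 (0.45) and Sec71 (0.60) were still called higher, and zetaCOP (-0.67), Snx3 (-1.04) and Vps24 (-1.36) still lower. Rab18 and Sec61gamma, at 833 and 792 nt, moved to -0.03 and -0.04 and were no longer called. Decreases of Rab19, RabX1, Vps2, Vps28 and Vps29 and increases of Sec3, Sec8, Sec24CD, Vps8, Vps16A, alphaCOP and betaCOP were also no longer called, while Rab21, Rab39, Sec61beta and Vps25 were now called higher and Rab35 lower. Vps24 was the 1 decrease among transcripts of 2500 nt or more, by its longest annotated transcript of 3326 nt, of which 2538 nt are 3' UTR. In input it had 221 normalized counts and 79.8 TPM, whereas Rab35, of 3348 nt, had 323 and 61.6 TPM. Those TPM values need not rest on the longest transcript of Vps24. Which of its transcripts was present was not tested, so its place among the long ones and its value of -1.36 are uncertain.

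**Figure D4:**
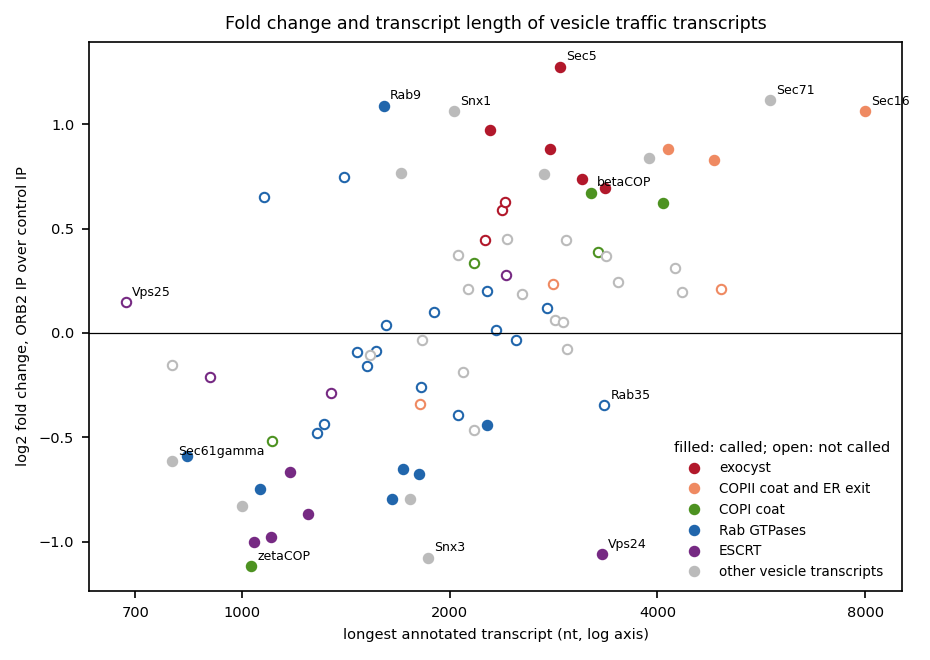
Length of the longest annotated transcript (horizontal log axis, nt) against log2 fold change of ORB2 IP over control IP (vertical axis), with 1 point per vesicle transcript, coloured by complex, filled where limma called it and open elsewhere. Transcripts under 1500 nt lie mostly below 0 and those of 2500 nt or more mostly above. Vps24 (-1.06) is the low point among those long by this measure, which may not be the length of the transcript present.

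Each immunoprecipitate was then set against input, the unselected extract. In ORB2 IP, 17 of 78 vesicle transcripts were higher than input (21.8%), beside 26.0% of all genes, and 25 were lower (32.1%), beside 25.1%. In control IP, 26 were higher (33.3%), beside 33.5% of all genes, and 27 were lower (34.6%), beside 32.3%. The medians were 0.07 in ORB2 IP and 0.03 in control IP, beside -0.03 and 0.01 for all genes. Groups did not overlap for 23 increases and 28 decreases in ORB2 IP, beside 30.0% and 32.1% of all genes. In control IP this held for 30 increases and 29 decreases, beside 36.1% and 37.1%. Both comparisons use the same input libraries, so their calls are not independent.

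Side by side, 16 transcripts were higher than input in both immunoprecipitates, 22 were lower in both, and 0 were called in opposite directions by limma. Such joint counts were not made over all genes, so no share stands beside these or the other joint counts given here. Those lower in both included 5 COPI subunits, Sec63, Sec23, Rab9, Snx1 and Sec5. Of those higher in both, Rab23, Sec24AB, Vps11, Sec10 and Rab7 had the largest log2 fold changes in ORB2 IP, and Rab23, Vps24, Sec22, Vps29 and Rab7 in control IP. The 6 transcripts Rab9, Sec5, Sec8, Snx1, alphaCOP and betaCOP were lower than input in both and yet higher in ORB2 IP than with the control Fab. A further 14 were called in none of the 3 comparisons, among them Rab6, Rab11, Rab30, Sec61beta, Vps26 and Vps35.

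Here too the split of calls moved with scaling. Equal library totals moved the median of all genes to -0.81 in ORB2 IP and to -0.41 in control IP. They gave 4 higher and 38 lower vesicle calls in ORB2 IP, beside 604 and 3195 of 6344 genes. In control IP they gave 15 and 33, beside 1403 and 2859 of 6355 genes. With the TPM table the medians of all genes were -0.42 in ORB2 IP and -0.60 in control IP. The vesicle calls were then 10 and 29 in ORB2 IP, beside 965 and 2124 of 6433 genes. In control IP they were 11 and 38, beside 1173 and 3193 of 6427 genes. Without input replicate 1 there were 18 higher and 27 lower vesicle calls in ORB2 IP, with 27 and 30 in control IP. Over all genes these were 1862 and 1816 in ORB2 IP, with 2364 and 2259 in control IP. Lower vesicle calls in ORB2 IP numbered 16 without input replicate 2, and the same number without input replicate 3. Over all genes, lower calls numbered 1035 and 891 in these fits.

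**Figure D5:**
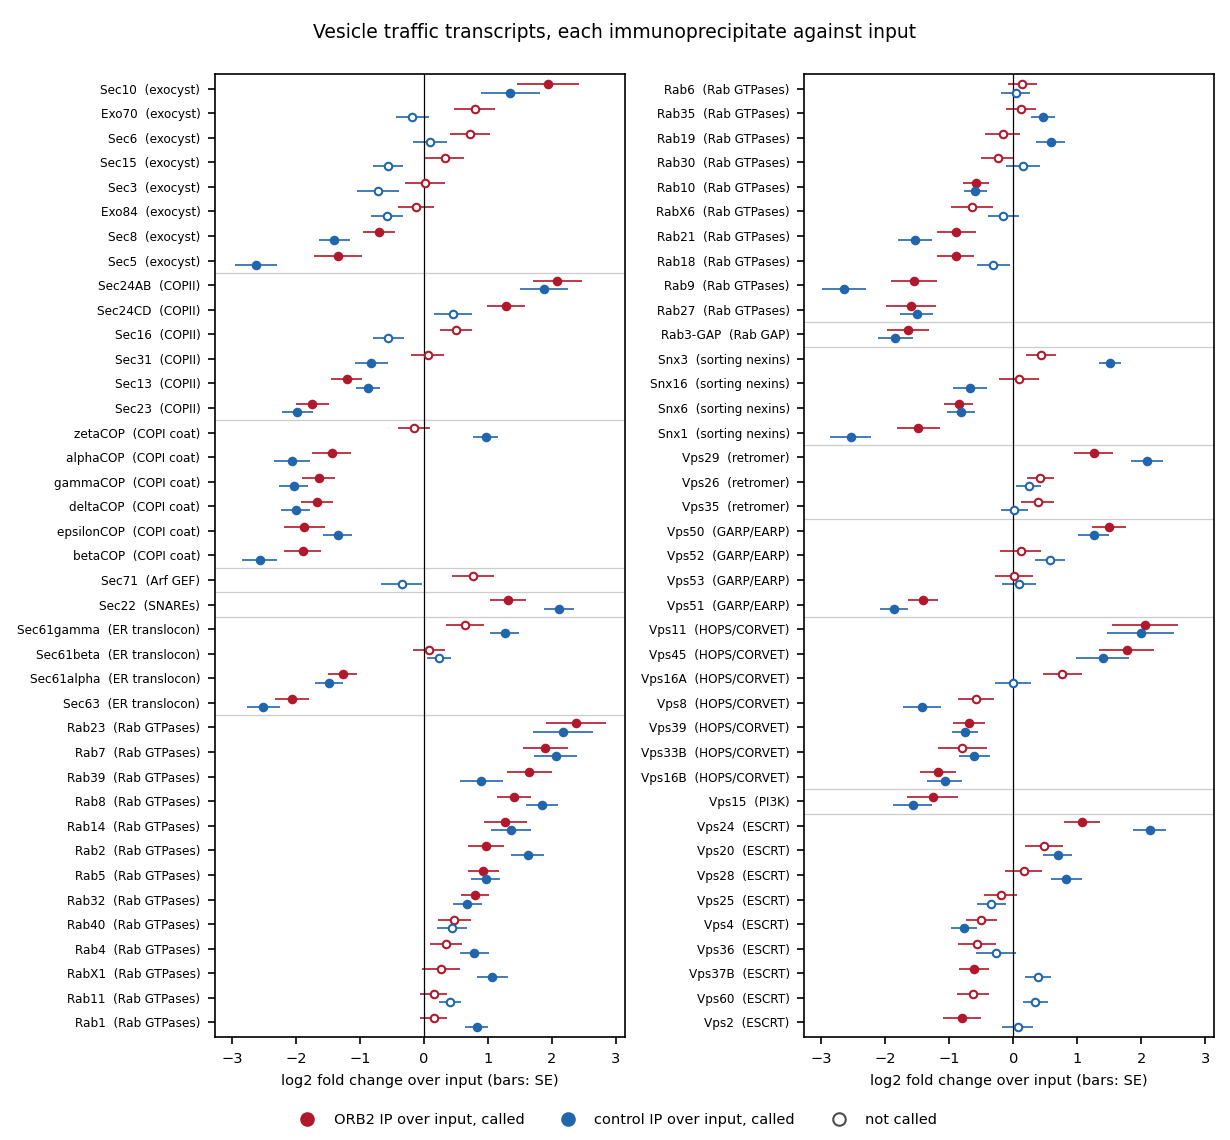
Log2 fold change over input (horizontal axes) for ORB2 IP and control IP in each vesicle transcript, arranged by complex, with bars of 1 SE, filled points for transcripts called by limma and open points for the rest. In 5 of 6 COPI subunits both points lie well below 0, and in Rab23, Rab7, Vps11 and Sec24AB both lie near 2.

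Other genes of the pathway, outside the symbol rule, were taken from a hand-made list of which 108 were in the tables. Of these 21 were higher in ORB2 IP than with the control Fab (19.4%, beside 20.8% of all genes) and 30 lower (27.8%, beside 21.6%), with a median of -0.08. After the length trend was taken out, 13 were higher and 25 lower of the 107 with a known length, beside 1085 and 1150 of 6272 genes. The 25 SNAREs and SNARE factors, which fuse vesicles with their target, gave 1 higher call (Slh, 0.82) and 15 lower calls led by Syx8 (-1.27), and their median was -0.62. They are short, with a median of 1442 nt, and after the length trend was taken out 1 was higher and 10 were lower. Of 19 clathrin and adaptor mRNAs, which form coats at the Golgi and the plasma membrane, 7 were higher, led by AP-2mu (1.26), and 5 lower, led by Clc (-1.20). The 24 TRAPP subunits and other tethers gave 4 higher calls, led by Golgin104 (1.38), and 3 lower, led by Trs33 (-1.51). The Arf GTPases and their kin gave 1 higher call, Arl4 (0.71), and 3 lower, led by Arf102F (-0.90). Their median length was 1095 nt, and none of the 3 decreases was called once the length trend was removed. Among other COPI and COPII partners garz, an Arf activator, was higher by 1.20. The 10 other ESCRT and sorting mRNAs gave 2 higher calls (20%), led by ALiX (0.93), and 2 lower (20%), CHMP2B (-1.35) and lsn (-0.93). Their median was -0.30.

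Of the 78 genes, 27 share exon sequence with another annotated gene in the Ensembl annotation, 26 of them on the opposite strand and Sec8 with CG2082 on the same strand. Sec24CD, Sec31, Sec15, Exo70, Sec5, Rab1, Rab19 and Vps24 are among those with an opposite-strand overlap. Libraries were stranded, but whether counting used strand is not given in the sources used here, so reads of these genes and of their neighbours may not be fully separated. In its assembly (BDGP6.54), Sec5 (FBgn0266670) lies on the plus strand of 2L from 3457302 to 3460367, Sec16 (FBgn0052654) on the plus strand of X from 12596047 to 12609910, and zetaCOP (FBgn0040512) on the minus strand of 3L from 16671664 to 16673555. The build behind the deposited tables is not given in the sources used here.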

How the data were processed

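The authors deposited 2 tables of 6440 genes by 9 libraries. One holds TPM, which the deposited values scale to transcript length and library total. The other holds normalized counts, a signal per gene that the authors deposited without describing its scale, so the depth behind it is not known. Tools named per the submitters' processing notes, with neither role nor order, are DESeq2 1.42.1, Salmon 1.9.1 and Trim Galore 0.6.5. Their genome build and annotation were not given in the sources used here. Every listed gene had input TPM above 1, the lowest being 1.001, so genes missing from input lie outside the tables.

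A moderated test with a mean-variance trend (limma 3.58.1 under R 4.3.3) was run for each of the 3 comparisons, on log2(normalized count + 1) of its 6 libraries. Genes averaging under 10 normalized counts were left out. Tests were two-sided, with Benjamini-Hochberg adjustment over all tested genes at 0.05. Fold changes on this scale understate low genes, and the members were read from the fit over all genes without a test of the list. Errors of fold changes are standard errors (SE). Tables and plots were made with Python 3.11.15, pandas 2.3.3 and matplotlib 3.10.9. Tested on simulated data for ORB2 IP against control IP (6318 genes), the fit recovered 42% of 100 2-fold and 90% of 100 4-fold changes with 7 false calls. For ORB2 IP against input (6344 genes) it recovered 24% and 78% with 5 false calls, and for control IP against input (6355 genes) 34% and 83% with 6. Each simulation changed 200 genes and left all others unchanged, a far smaller share than was called in the data. The adjusted threshold was therefore stricter there, and these rates do not give the power of the reported calls.

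Members and lists were chosen with earlier results of these data known. All 78 members could be named, and library values were given for up to 2 called increases and 2 called decreases per complex and comparison and for abundant members. Pathway genes outside the rule were named when they led their class, and beta'COP and lsn as further COPI and ESCRT genes. Of 127 such genes listed by hand, 108 were in the tables. Lengths and coordinates came from Ensembl release 115 (BDGP6.54), in which all 78 members were found.

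The labels number replicates 1 to 3 in each group without stating that a number marks a shared lysate. Between ORB2 IP and control IP, the deviations of same-numbered libraries from their group means correlated at 0.1003, 0.22 and 0.268, so the replicate block is given there as well. Alternatives were other pseudocounts (0.5 and 5), filters and scalings, the TPM table, 1 fit of all 9 libraries, no mean-variance trend, the block, each library left out and, chosen after seeing the data, removal of the trend with length.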

Additional observations from a re-analysis of the deposited data

How the results depend on the processing

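In ORB2 IP against control IP, 8 of 32 vesicle calls held in all 17 alternatives (Sec16, Sec5, Sec71, Snx3, Vps24, Vps37B, Vps60 and zetaCOP) and none reversed. Against input, 19 of 42 calls in ORB2 IP and 31 of 53 in control IP held in all. The reversals were Rab19 (-0.064) and Rab35 (-0.18) in control IP against input with the TPM table, and Vps20 (-0.0065) there after the length trend was removed, none of them called. Against control IP, higher vesicle calls numbered 3 with equal library totals, and lower calls 6 with the TPM table and 10 after the length trend was removed. Over all genes these numbered 383, 712 and 1150. In 1 fit of all 9 libraries 1781 genes were called over the whole table, against 2682 in the fit of 6. Against input, ORB2 IP gave 4 higher and 38 lower vesicle calls with equal library totals and 10 higher with the TPM table. Control IP gave 15 and 11 higher in these 2 settings. Over all genes ORB2 IP gave 604, 3195 and 965 such calls, and control IP 1403 and 1173. The cause was not tested, beyond the shifts of the median that the scalings make.

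With 1 library left out, ORB2 IP against control IP gave 1691 to 3066 calls over all genes and 15 to 34 among the vesicle genes (5 to 19 higher and 10 to 15 lower), lowest without control IP replicate 3 and highest over all genes without ORB2 IP replicate 3. Against input, ORB2 IP gave 2011 to 3678 calls over all genes, 30 to 45 among the vesicle genes, 14 to 18 of them higher and 16 to 27 lower. Control IP gave 3507 to 4623 calls over all genes and 42 to 57 among the vesicle genes. With the replicate number as a block, 18 vesicle genes were higher and 17 lower in ORB2 IP than in control IP, beside 1523 and 1501 of all genes. No vesicle call was lost, and Sec6, Sec10 and Rab4 were gained. Against input, where same-numbered libraries did not all deviate together (-0.187, 0.0968 and 0.18 with ORB2 IP, 0.0396, 0.185 and 0.177 with control IP), the block gave 17 higher and 18 lower calls in ORB2 IP, with 25 and 28 in control IP. The depth of the libraries is not known, and ORB2 IP replicate 2, with the coarsest low values, limits the scarce transcripts most.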
